A study of Phaseolus coccineus with 4 samples.

Results

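A group of 235 genes of scarlet runner bean (Phaseolus coccineus) had many reads in the embryo proper and was nearly without reads in the suspensor. They were chosen from 19883 genes by their level in RPKM, a read number divided by the length of the gene and by the depth of its library. This allows for length and depth only. When the libraries were further scaled by median ratios, the same limits gave 163 genes. A gene was taken when it stood at 5 RPKM or more and under 100 RPKM in both embryo proper libraries, and under 0.1 RPKM in both suspensor libraries. These genes made up 1.18% of all genes listed and 3.73% of the 6298 genes at 5 to 100 RPKM in both embryo proper libraries. The choice used the values of all 4 libraries, so the difference between the regions is a description, and no test of it on these genes is used as evidence.

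The study compared 2 regions of the globular-stage embryo, which were isolated by laser capture from embedded seeds, 6 days after hand pollination. The groups were the embryo proper, with 2 biological replicates, and the suspensor, with 2 biological replicates. All plants were of the cultivar Hammond's Dwarf Red Flower and were kept in the same growth conditions. No label says how many embryos or plants were pooled in a sample, or whether equal replicate numbers mark shared plants. In such bulk samples, fewer cells that hold a transcript and less of it per cell cannot be told apart.

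After the first divisions of a plant zygote, the cells away from the mother tissue become the embryo proper, from which the plant body forms. The cells toward the mother tissue become the suspensor, a short-lived stalk that anchors the embryo and feeds it. In beans of this genus the suspensor is large and its cells carry giant polytene chromosomes, which has long made it a subject for the study of early embryos. The deposited tables identify genes by ID alone, and 0 of these IDs matched the available reference table of 34063 genes. No gene therefore has a name or a role here, and neither the labelled regions nor the chosen genes could be checked against marker genes. The genes are described by level, reads, length and place in the ID order.

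The name "embryo proper only" holds as a limit on level and not as absence. Of the 235 genes, 228 (97.0%) were listed in at least 1 suspensor library, 185 of them in both and 43 in 1. Only 7 were listed in neither. The level in embryo proper replicate 1 ran from 5.005 to 66.0 RPKM with a median of 12.02 RPKM. In embryo proper replicate 2 it ran from 5.10 to 59.9 RPKM with a median of 13.2 RPKM. The highest value among these genes was 0.0957 RPKM in suspensor replicate 1, where the median was 0.0321 RPKM. It was 0.0998 RPKM in suspensor replicate 2, where the median was 0.0387 RPKM. The regions are far apart by the choice itself, but the upper limit of 100 RPKM was never reached, and 0 genes were left out because of it.

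**Figure D1:**
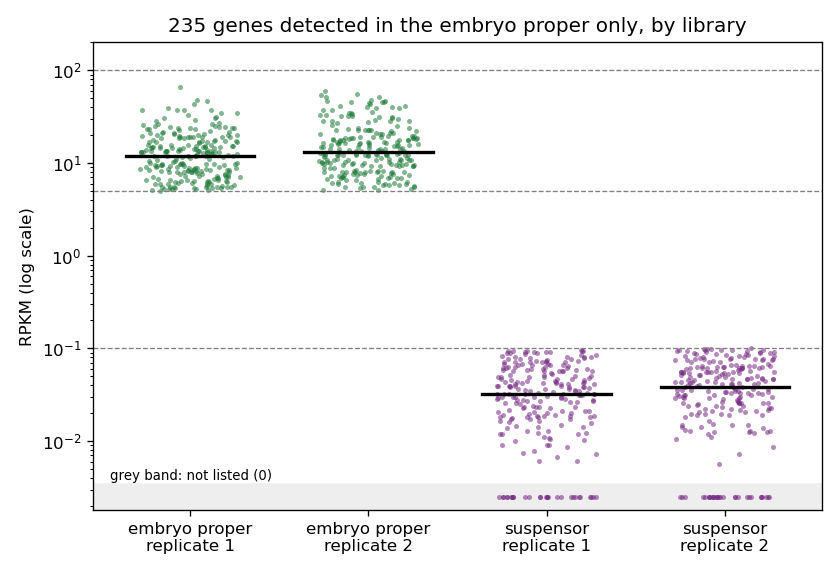
Level in RPKM (log scale) of the 235 chosen genes in each library, 1 point per gene, with the embryo proper in green, the suspensor in purple and a black bar at the median. Dashed lines mark the limits of 5, 100 and 0.1 RPKM, and the grey band holds the 28 genes not listed in suspensor replicate 1 and the 29 not listed in suspensor replicate 2.

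The reads behind these values were recovered from the RPKM, which are whole read numbers divided by length and depth. The embryo proper libraries had a recovered depth of 38967825 reads (replicate 1) and 32855045 reads (replicate 2). For the suspensor it was 56899297 reads (replicate 1) and 47091897 reads (replicate 2). The suspensor libraries were therefore the deeper ones. The chosen genes together held 227222 reads, or 0.583% of the depth (95% Wilson interval 0.581% to 0.585%), in embryo proper replicate 1. In embryo proper replicate 2 they held 226528 reads, or 0.689% (0.687% to 0.692%). Suspensor replicate 1 had 874 reads of them, or 0.00154% (0.00144% to 0.00164%). In suspensor replicate 2 there were 829 reads, or 0.00176% (0.00164% to 0.00188%). These intervals take reads as independent, which reads amplified by PCR are not, so they are too narrow even for counting error. They leave out the spread between samples, and the gap between the regions follows from the choice.

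Per gene, the embryo proper values rested on many reads and the suspensor values on a few. The median gene had 740 reads in the first embryo proper library and 731 in the second, against 3 reads in each suspensor library. The lowest embryo proper number was 97 reads, and 234 of the 235 genes had at least 100 reads in both embryo proper libraries. In the suspensor the numbers went up to 25 reads in replicate 1 and 22 in replicate 2, with 10 genes above 10 reads in at least 1 of these libraries. At most 3 reads in each suspensor library were found for 93 genes, and at most 1 read in each for 36. Single suspensor values of these genes are thus close to what a few reads can resolve, and their order among themselves carries large counting error.

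The limit of 0.1 RPKM admits different read numbers at different gene lengths. At the median recovered length of the chosen genes, 1650 bases, it allowed up to 9 reads in suspensor replicate 1 and up to 7 in suspensor replicate 2. A gene needed at least 176 bases for 1 read to stay under the limit in suspensor replicate 1, and at least 213 bases in suspensor replicate 2. The chosen genes were nevertheless much like other genes in length. Their median of 1650 bases compares with 1702 bases for all genes at 5 to 100 RPKM in the embryo proper and 1505 bases for all genes listed. The longest by recovered length, Phvul.003G077600 with 4952 bases, stood at 14.4 and 28.7 RPKM in the embryo proper replicates and at 0.0887 and 0.0386 RPKM in the suspensor replicates. It carried the 25 suspensor reads that were the highest number in replicate 1.

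Of the 4 genes with the highest mean in the embryo proper, 3 were above 0.08 RPKM in both suspensor libraries. Phvul.006G046300 had 66.0 and 31.3 RPKM in the embryo proper replicates, against 0.0572 and 0.0921 RPKM in the suspensor replicates. Phvul.003G082900 had 31.3 and 53.9 RPKM in the embryo proper, against 0.0812 and 0.0981 RPKM in the suspensor. For Phvul.006G145800 the values were 48.1 and 33.2 RPKM in the embryo proper, against 0.0869 and 0.0954 RPKM in the suspensor. The fourth, Phvul.007G073600, was the steadiest of them, averaging 40.4 ± 4.98 RPKM in embryo proper libraries and 0.0931 ± 0.000452 RPKM in suspensor libraries (SD, n = 2 each). That small suspensor spread came from 6 reads in replicate 1 and 5 reads in replicate 2, a number at which counting error is far larger. In each of these genes the suspensor level was between 0.154% and 0.230% of the embryo proper level.

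The 7 genes listed in neither suspensor library were mostly at low levels in the embryo proper. Phvul.009G260600 was the highest, at 22.6 and 39.4 RPKM in the embryo proper replicates and 0 in both suspensor libraries. It was also the shortest of the 235 genes, with a recovered length of 177 bases, and its embryo proper values rested on 156 and 229 reads. With 3 reads per library as the floor, its embryo proper level was at least 94.2-fold higher than its suspensor level. A gene without suspensor reads has its length recovered from the embryo proper alone, as the smallest length that fits. Length and reads may therefore both be too low, for example by a common divisor. The floor would then be lower and the bound higher.

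The next genes of this kind were all under 13 RPKM in the embryo proper. Phvul.009G057600 had 7.185 and 12.01 RPKM in the embryo proper and was at least 61.8-fold higher there. Phvul.010G061300 had 7.03 and 11.7 RPKM and was at least 56.9-fold higher. Phvul.004G037300 had 5.53 and 12.4 RPKM and was at least 111-fold higher in the embryo proper. The other 3 had lower means and higher or similar bounds. Phvul.003G118000 had 7.50 and 5.88 RPKM in the embryo proper and was at least 193-fold higher there. Phvul.005G042800 had 6.28 and 9.57 RPKM and was at least 225-fold higher in the embryo proper. For Phvul.006G178200 the values were 5.39 and 6.05 RPKM, with a bound of at least 102-fold higher. Of the 7 genes, 6 were higher in embryo proper replicate 2 than in replicate 1, and Phvul.003G118000 was lower. The recovered lengths of the first 4 ran from 177 to 719 bases, and a floor of 3 reads is a higher RPKM in a shorter gene.

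At the edges of the choice, genes just inside and just outside differed little in the value next to the limit, and differed more in their other values. Phvul.007G148800 was the member nearest to the lower limit, with 5.005 and 10.8 RPKM in the embryo proper and 0 and 0.0511 RPKM in the suspensor. Phvul.008G225200 fell just outside it, with 4.97 and 18.6 RPKM in the embryo proper and 0.0314 and 0 RPKM in the suspensor. Nearest to the suspensor limit was Phvul.003G124700, with 13.4 and 45.7 RPKM in the embryo proper and 0.0661 and 0.0998 RPKM in the suspensor. Phvul.003G099600 was just outside, with 6.63 and 7.56 RPKM in the embryo proper and 0.1005 and 0.0455 RPKM in the suspensor.

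The suspensor level was also expressed as a share of the embryo proper level, which the limits of 5 and 0.1 RPKM hold under 2% for every chosen gene. Its median was 0.249% of the embryo proper level, with quartiles of 0.177% and 0.324%, and 198 of the 235 genes lay between 0.1% and 0.5%. The highest share was 1.33%, in Phvul.009G058000, named here after its values were seen, which had 6.22 and 7.96 RPKM in the embryo proper and 0.0926 and 0.0959 RPKM in the suspensor. It was the only chosen gene above 1%. Across the 235 genes, Spearman's rho between the mean levels of the regions was 0.652. Between a single suspensor and a single embryo proper library it was 0.322 to 0.507. Replicates of the same region gave 0.264 (embryo proper) and 0.369 (suspensor), the first below that range and the second within it. Over all 6298 genes at 5 to 100 RPKM in the embryo proper, rho between the means was 0.442. For these genes the replicates gave 0.583 (embryo proper) and 0.687 (suspensor). Both were above the 0.336 to 0.423 between single libraries of different regions. These values describe genes measured in the same libraries, and for the chosen genes the limits shape them.

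**Figure D2:**
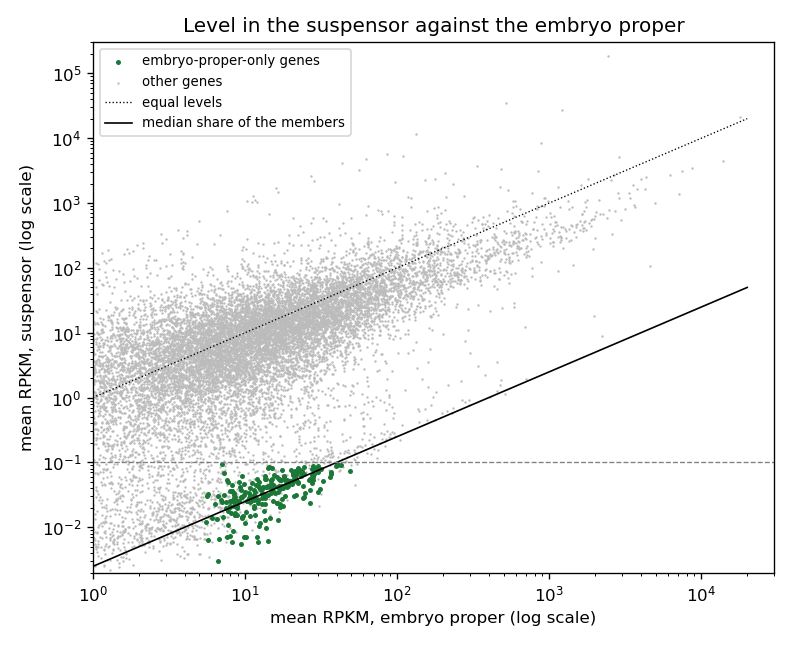
Mean level in the suspensor against mean level in the embryo proper, both in RPKM on log scales, 1 point per gene, with the chosen genes in green and all other genes in grey. The dotted line marks equal levels, the solid line the median share of the chosen genes (0.249%) and the dashed line 0.1 RPKM; the 7 genes not listed in the suspensor have no place on a log axis.

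The chosen genes became rarer toward higher embryo proper levels, and genes picked by share did so less steeply. Among the 6298 genes at 5 to 100 RPKM in both embryo proper libraries, 361 had a suspensor level under 1% of the embryo proper level. Within that cut, which fixes a low share beforehand, the median share was 0.269% at an embryo proper mean of 5 to 10 RPKM, 0.276% at 10 to 20 RPKM, 0.311% at 20 to 50 RPKM and 0.294% at 50 to 100 RPKM. Their median suspensor level was 0.0212, 0.0413, 0.0919 and 0.183 RPKM in these bands. The band from 50 to 100 RPKM thus passed the limit of 0.1 RPKM, and it held 32 genes under 1% but 0 of the chosen genes. In the lower bands the chosen genes were 70 of 1024 genes (6.84%), 106 of 2146 (4.94%) and 59 of 2373 (2.49%). By share, the genes under 1% were 6.74%, 5.78%, 5.73% and 4.24% of the genes in the 4 bands. A limit on share under 1% would add 127 genes that the fixed limit leaves out.

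Low shares also formed a group of their own in the distribution. Of the genes at 5 to 100 RPKM in both embryo proper libraries, 231 had a suspensor share from 0.2% to 0.5%, of which 154 were chosen. There were 55 genes from 0.5% to 1%, 67 from 1% to 2% and 113 from 2% to 5%. Shares from 10% to 20% were found for 470 genes, and the median over all 6298 genes was 61.6%. Below 0.2% there were 50 genes from 0.1% to 0.2%, 18 under 0.1% and the 7 listed in neither library. Low shares were also found at far higher levels. Among the 370 genes whose embryo proper mean reached 300 RPKM, the lowest suspensor share was 0.223%, and 11 genes were under 1%. None of these 11 was under 0.2%, beside 75 of the 361 genes under 1% at 5 to 100 RPKM. With 11 genes little can be read from this, and the chosen genes among the 75 had few suspensor reads. What sets shares this low was not tested.

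**Figure D3:**
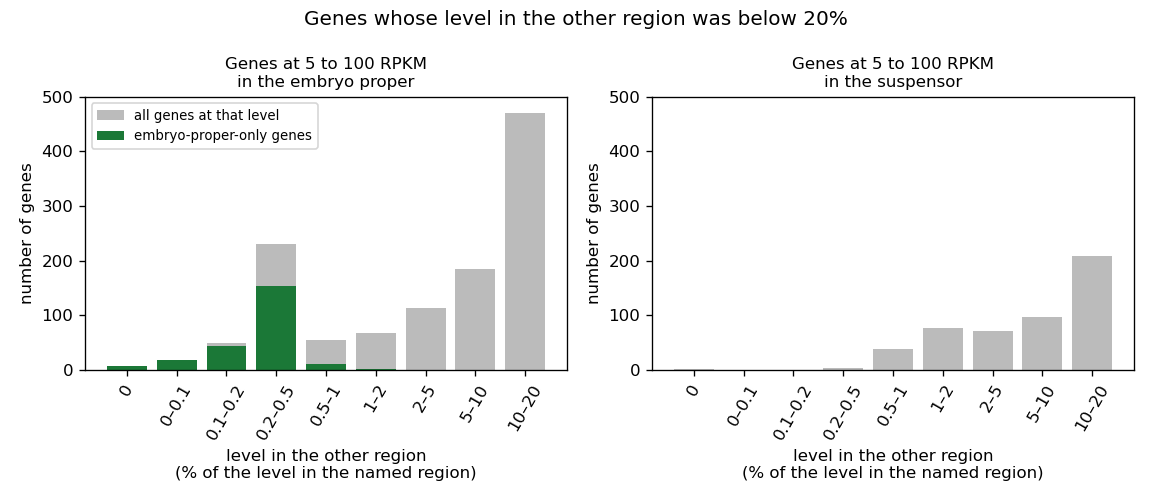
Number of genes by their level in the other region, as a percent of the level in the named region, for genes at 5 to 100 RPKM in both embryo proper libraries (left) and in both suspensor libraries (right); the bins are of unequal width. Green marks the chosen genes, which fill most of the group between 0.1% and 0.5% on the left, where 231 genes lie between 0.2% and 0.5%.

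The reverse choice, genes at 5 to 100 RPKM in both suspensor libraries and under 0.1 RPKM in both embryo proper libraries, gave 12 of 5045 genes at that suspensor level. The difference from the 235 genes above depends on the kind of limit and on the scaling. Of the genes low in the other region by share, those of the embryo proper had a median share of 0.316% and those of the suspensor a median share of 1.10%, taking genes under 2% in both cases. With a limit on share in place of 0.1 RPKM, 361 of 6298 embryo proper genes and 45 of 5045 suspensor genes were under 1%. Under 2% there were 428 and 121. With libraries scaled by median ratios, the fixed limit gave 163 of 5795 embryo proper genes and 25 of 5231 suspensor genes. The counts were thus 19.6 to 1 by the fixed limit, 6.52 to 1 by that limit after scaling, 8.02 to 1 under 1% and 3.54 to 1 under 2%. Such ratios of counts do not allow for the larger number of embryo proper genes at that level, so ratios of shares would be smaller. With 2 libraries per region these counts have no test.

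The choice was then made on 1 replicate and read in the other, which uses libraries that had no part in it. On replicate 1 of each region, 780 genes met the rule. In suspensor replicate 2, 456 of them (58.5%) were under 0.1 RPKM, against 8.04% of all 8059 genes at 5 to 100 RPKM in embryo proper replicate 1. Their median there was 0.0657 RPKM, against 8.99 RPKM for all genes at that level. In the same direction, 707 of the 780 genes (90.6%) were higher in embryo proper replicate 2 than in suspensor replicate 2, against 67.5% of all genes at that level. Low level in the suspensor thus carried over to the other library for most genes, though not for all, since 164 genes (21.0%) reached 1 RPKM or more in suspensor replicate 2 and 45 reached 5 RPKM.

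The embryo proper side carried over less well, in a comparison with all genes that is not matched for level. The 235 genes were 6.84% of genes at an embryo proper mean of 5 to 10 RPKM but 2.49% at 20 to 50 RPKM. Only 422 of the 780 genes (54.1%) were again at 5 to 100 RPKM in embryo proper replicate 2, where 78.1% of all 8059 genes were, and 161 (20.6%) were below 1 RPKM, against 4.78% of all. The whole rule was met again by 235 genes, or 30.1%, against 4.06% of all genes at that level. By definition these are the 235 chosen genes themselves. Choosing on replicate 2 of each region gave 664 genes. Of these, 478 (72.0%) were under 0.1 RPKM in suspensor replicate 1, against 10.0% of all 8264 genes at that level. In embryo proper replicate 1, 327 (49.2%) were again at 5 to 100 RPKM, against 76.2% of all, and 171 (25.8%) were below 1 RPKM. The rule was met again by the same 235 genes, here 35.4%, against 5.11% of all genes at that level, so the 2 directions are not independent. Of the 664 genes, 91.6% were higher in embryo proper replicate 1 than in suspensor replicate 1, against 60.7% of all. Genes are not replicates, so these shares are given without a p-value.

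**Figure D4:**
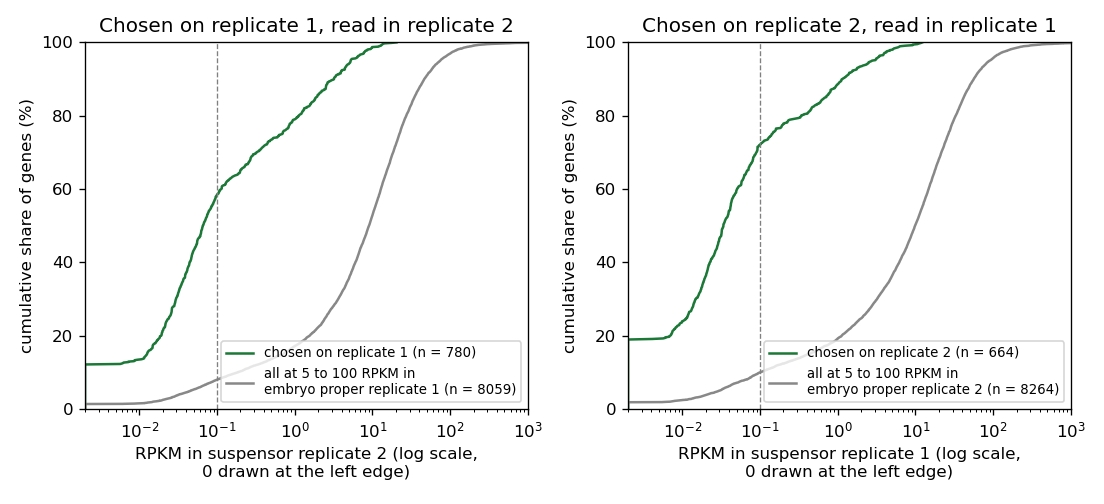
Cumulative share of genes (%) by RPKM (log scale) in the suspensor library that the choice did not use, for genes chosen on 1 replicate (green) and for all genes at 5 to 100 RPKM in that embryo proper replicate (grey). At the dashed line of 0.1 RPKM the green curves stand at 58.5% and 72.0% and the grey curves at 8.04% and 10.0%.

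The embryo proper replicates differed for many of the 235 genes. A total of 152 genes (64.7%) lay within 2-fold of each other in the replicates, as did 71.5% of the other 6063 genes at 5 to 100 RPKM. The median size of the log2 ratio between the replicates was 0.74 for the chosen genes and 0.61 for the other genes at that level. Higher values in replicate 2 than in replicate 1 were found for 139 chosen genes (59.1%), and for 53.2% of the others. The largest ratio was that of Phvul.009G202000, with 7.01 RPKM in embryo proper replicate 1 and 55.8 RPKM in replicate 2, while its suspensor values were 0.0811 and 0.0784 RPKM. The opposite extreme was Phvul.003G273200, with 34.4 RPKM in embryo proper replicate 1 and 5.93 RPKM in replicate 2, and with 0.0680 and 0.0822 RPKM in the suspensor. In total, 12 genes differed more than 4-fold between the embryo proper replicates. The ratios were 7.96-fold and 5.81-fold in the embryo proper, while the suspensor libraries held 5 and 4 reads of the first gene and 7 and 7 of the second.

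**Figure D5:**
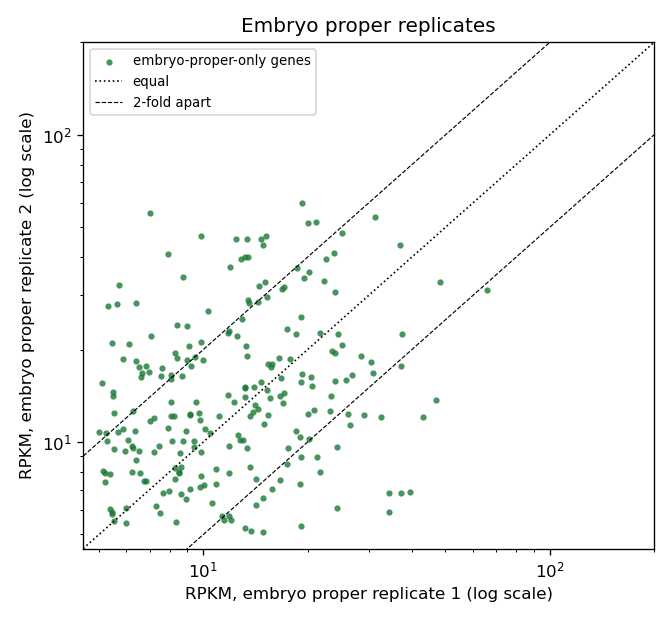
Level of the 235 chosen genes in embryo proper replicate 2 against embryo proper replicate 1, both in RPKM on log scales, 1 point per gene. The dotted line marks equal levels and the dashed lines a 2-fold difference, within which 152 genes lie.

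In the fit over all genes, the difference between the regions was large for the chosen genes, as the choice implies. On log2(RPKM + 1), the difference of embryo proper minus suspensor had a median of 3.75 over the 235 genes, with a range of 2.69 to 5.44, and a median of 0.45 over all 13527 genes tested. All 235 passed the filter on low values, as their level in the embryo proper guarantees. limma called 177 of them (75.3%) higher in the embryo proper at an adjusted p under 0.05 with Benjamini-Hochberg adjustment, beside 4.72% of all genes tested, and nothing is read from this count. Standard errors here use a variance that the fit draws toward that of genes at similar levels. For Phvul.006G046300 the difference was 5.44 with a standard error of 0.859. For Phvul.009G202000, whose embryo proper replicates lay furthest apart, it was 4.30 with a standard error of 1.12. The pseudocount of 1 sets most of these sizes, since every suspensor value is under 0.1 RPKM, and with a pseudocount of 0.1 the median difference was 6.55. Leaving out any one of the 4 libraries leaves a lone library in its region. The median difference over the 235 genes was then 3.67 to 3.77, beside 0.41 to 0.56 over all genes tested. Scaling the libraries by median ratios left 30 calls and moved the median of all genes to 0.01, and 42.6% of all calls were then higher in the embryo proper, against 69.2% with the values as deposited.

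The genes were spread over the whole ID order. The IDs carry a block number from 1 to 11, and each block held between 11 and 36 of the 235 genes. Block 3 held the most, with 36 genes (15.3%), beside 11.5% of all genes at 5 to 100 RPKM in the embryo proper. Block 2 held 19 genes (8.09%), beside 12.5% of the genes at that level. As a share of the genes at that level in a block, the chosen genes ranged from 2.41% in block 2 to 4.97% in block 3.

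Next to each other in ID number stood 5 pairs of chosen genes. Phvul.008G257800 had 19.2 and 8.93 RPKM in the embryo proper, against 0.0394 and 0.0476 RPKM in the suspensor, and its neighbour Phvul.008G257900 had 24.5 and 22.5 RPKM, against 0.0427 and 0.0860 RPKM. Phvul.010G009800 had 26.2 and 12.4 RPKM in the embryo proper, against 0.0270 and 0.0762 RPKM in the suspensor, and Phvul.010G009900 had 15.7 and 17.6 RPKM, against 0.0613 and 0.0494 RPKM. In both pairs the first gene was more than 2-fold lower in embryo proper replicate 2 than in replicate 1, and the second was nearly level. The other pairs were Phvul.001G038400 with Phvul.001G038500, Phvul.006G160500 with Phvul.006G160600, and Phvul.007G179800 with Phvul.007G179900. Their embryo proper values lay between 7.24 and 13.5 RPKM. The ratio of embryo proper replicate 2 over replicate 1 was 0.719 and 1.33 in the first of these pairs, 1.20 and 1.42 in the second, and 1.03 and 1.08 in the third. Whether neighbours share reads through similar sequence could not be examined with the deposited values.

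The genes beside the chosen ones in ID number were at about the same balance between the regions as genes in general. Of 348 other listed genes that directly precede or follow a chosen gene by ID number, 230 passed the filter on low values. Their median log2 difference, taken from the mean RPKM of each region plus 1 as embryo proper minus suspensor, was 0.42, and that of all tested genes was 0.41 on the same scale.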

How the data were processed

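RNA from 2 embryo proper and 2 suspensor samples was sequenced. Per the labels' protocols, 5 ng of total RNA from sections of 6 microns was amplified with the Ovation RNA-Seq kit, with 10 cycles of PCR. The deposited tables, 1 for each library, hold RPKM made by the authors and list no gene at 0. Bowtie 0.12.7 and bedtools are named, per the submitters' processing notes. Build, annotation, strand and the handling of reads with several matches were not given in the sources used, so similar genes may share reads.

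A gene missing from a table was set to 0. Depth, length (50 to 20000 bases) and reads were recovered from the RPKM as whole numbers within 0.01 reads, for 100% of genes. In tables simulated from these libraries, 91.5% of the 235 genes had exact reads, and most others were off by a common divisor. The region contrast was fitted with limma 3.58.1 in R 4.3.3 on log2(RPKM + 1) with eBayes and a trend, for the 13527 genes that reached 1 RPKM in 2 or more libraries. Tests were two-sided. In simulated data, this fit called 22% of genes changed by 2 and 86% of those changed by 4 on the log2 scale. Other steps used Python 3.11.15. Regions and replicate numbers were read from the titles. No pairing was assumed, as no label shows one. Same-numbered libraries did not deviate together (r = -0.027 across genes), but with 2 replicates per region this cannot exclude shared plants. The genes, rules and thresholds were chosen with earlier results of these data known. Genes were named by level, by absence from the suspensor tables, by ratio between replicates, by length, by closeness to a limit and by successive ID numbers, except where stated otherwise. p-values measure only the spread between these samples, with each gene's variance drawn toward that of genes at similar levels.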

Additional observations from a re-analysis of the deposited data

How the results depend on the processing

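The number of chosen genes (235) depended on the limits. It was 121 and 409 with suspensor limits of 0.05 and 0.5 RPKM, 7 for genes listed in neither suspensor library and 102 with an embryo proper limit of 10 RPKM. Limits added after the data were examined gave 361 (suspensor mean under 1% of the embryo proper mean) and 100 (at most 3 reads in each suspensor library). It stayed at 235 without the upper limit, and was 163 with median ratio scaling and 257 with libraries rescaled to the same sum. Asking the rule of 3 libraries gave 327 to 478 genes, 478 without embryo proper replicate 1, 456 without embryo proper replicate 2, 327 without suspensor replicate 1 and 422 without suspensor replicate 2. The share that met the rule again in the other replicate (30.1%) was 35.4% from replicate 2 and 25.8% with median ratio scaling.

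For limma, the genes called higher in the embryo proper numbered 177 of the 235 and 638 in all. A pseudocount of 0.1 gave 235 and 1337, a pseudocount of 5 gave 4 and 280, no filter gave 0 and 10, and median ratio scaling gave 30 and 225. With a replicate block, for which no label shows a pairing of the samples, the numbers were 235 and 1524. Leaving out a library gave 0 of the 235 each time, and 0 to 27 in all (0 without either embryo proper library, 27 without suspensor replicate 1 and 26 without suspensor replicate 2), with 235 of the 235 and 1885 to 2304 in all at an unadjusted p under 0.05. Such fits have fewer residual degrees of freedom and take the lone sample to vary like the other region. With no filter more genes are tested. The cause of these shifts was not tested for any setting. At a median of 3 suspensor reads per gene, depth limits any ranking among these genes.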
